A study of Homo sapiens with 6 samples.

Results

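The genes described here carry the integrated stress response and the unfolded protein response, the programmes with which a cell answers shortage of amino acids and misfolded protein in the endoplasmic reticulum (ER). They are 36 genes chosen by name, from 58735 in the deposited count table, and each name matched 1 row. They comprise ATF4 and other stress transcription factors, effectors of the response, enzymes of serine, cysteine and asparagine synthesis, amino acid transporters, the ER stress sensors, and ER chaperones.

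The libraries came from RPE-1 cells, an immortalized human line derived from retinal pigment epithelium, in which CETN2 carries a GFP tag and PLK4, the kinase that starts centriole duplication, is driven by a doxycycline-inducible promoter. One group of 3 libraries received an siRNA against SON, a nuclear speckle protein needed for splicing of pre-mRNA (siSON), and the other group of 3 received a scramble siRNA (siControl). PLK4 was induced with 1 µg/mL doxycycline in both groups, so there is no uninduced comparison here, and the time after transfection is not given in the sources used here. The comparison thus shows mRNA levels with and without SON depletion, under PLK4 induction. Nothing in the labels says that the replicates were separate cultures, so the p-values measure the spread between these libraries, which may be technical.

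As background, phosphorylation of the initiation factor eIF2 lowers general translation and favours translation of ATF4, a transcription factor that switches on amino acid transporters, biosynthetic enzymes and the regulator DDIT3 (CHOP). In the ER, unfolded protein is sensed by the kinase PERK (encoded by EIF2AK3), which phosphorylates eIF2, by the nuclease IRE1 (ERN1), which splices XBP1 mRNA in the cytoplasm, and by ATF6, which is cut at the Golgi to release a transcription factor. Both XBP1 and ATF6 raise ER chaperones and degradation factors. Gene counts show mRNA abundance only, not the translation of ATF4, the cytoplasmic splicing of XBP1 or the cleavage of ATF6.

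Library totals ran from 54572365 to 69764836 counts. SON, the target of the siRNA, was at 295, 313 and 284 CPM (counts scaled to a common library size with TMM factors) in siControl and at 68.0, 70.0 and 65.0 CPM in siSON, so that the knockdown left 22.8% of the fitted control level (log2FC, the log2 fold change of siSON over siControl, -2.14, SE 0.06, adjusted p 6.78e-10). PLK4 was lower in siSON, with a log2FC of -0.36 (SE 0.11, adjusted p 0.0143). Of the markers of retinal pigment epithelium, MITF, OTX2 and BEST1 were present in all libraries, RPE65 had at most 18 counts and was at 0 in siSON, and TYR and TTR were at 0 throughout. The summed level of the 10 markers of retinal pigment epithelium was 52.3 to 54.2 CPM in siControl and 74.4 to 83.6 CPM in siSON. That of the 4 keratins KRT7, KRT8, KRT18 and KRT19 was 784 to 889 CPM and 1343 to 1408 CPM. Members differed in direction. MITF, OTX2 and BEST1 had higher means in siSON. PMEL was at 2.06 CPM in siControl and 0.200 CPM in siSON, LRAT at 0.433 and 0.0692 CPM, and SERPINF1 at 0.877 and 0.360 CPM. KRT7 was at 23.4 and 13.9 CPM, against 220.4 and 615 CPM for KRT18. The neuronal markers SNAP25, SYT1 and TUBB3 together moved from 103 to 109 CPM down to 42.2 to 46.2 CPM, with SYT1 at 92.0 and 30.4 CPM but SNAP25 at 5.05 and 9.11 CPM, the 4 blood markers, with CD3E and HBB at 0, from 1.86 to 2.59 CPM down to 0.407 to 0.465 CPM, and the 3 endothelial markers from 1.19 to 1.39 CPM down to 0.393 to 0.913 CPM. The part of these shifts in the results below was not tested.

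Most of the stress response genes were more abundant after SON knockdown. Of the 36 genes, 35 passed the filter on low counts, and 24 of these were higher and 6 lower in siSON (quasi-likelihood test of edgeR, adjusted p below 0.05), while 5 did not pass. The 24 higher genes are 68.6% of those tested, where 35.2% of all 16591 genes tested were called higher, and the 6 lower genes are 17.1%, where 36.5% of all genes were called lower. Among genes with a mean count of at least 50, 38.6% were called higher and 39.3% lower. Of the set, 34 genes pass this filter, most of them far above it, so these shares are not matched to their level. The median log2FC was 0.70, and it was -0.03 over all genes tested. The genes were chosen with earlier results of these data known. The contrasts with all genes and the ranks, here and below, therefore describe the set and do not test it. In a bulk culture, more RNA per cell and more cells of a kind cannot be told apart.

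At least a 2-fold estimate with a call was found for 14 higher genes, against 8.72% of all genes, and for 3 lower genes, against 20.5%. The count of 14 was 9 when library size alone was used for scaling, 10 under cyclic loess normalization and 11 without replicate 1 of both groups. CPM values of the groups did not overlap for 32 of the 35 genes, where 75.1% of all genes showed no overlap. The 36 genes together took 0.552% to 0.559% of the counts in siControl and 0.770% to 0.822% in siSON. Values per library below are in the order replicate 1, 2 and 3.

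**Figure D1:**
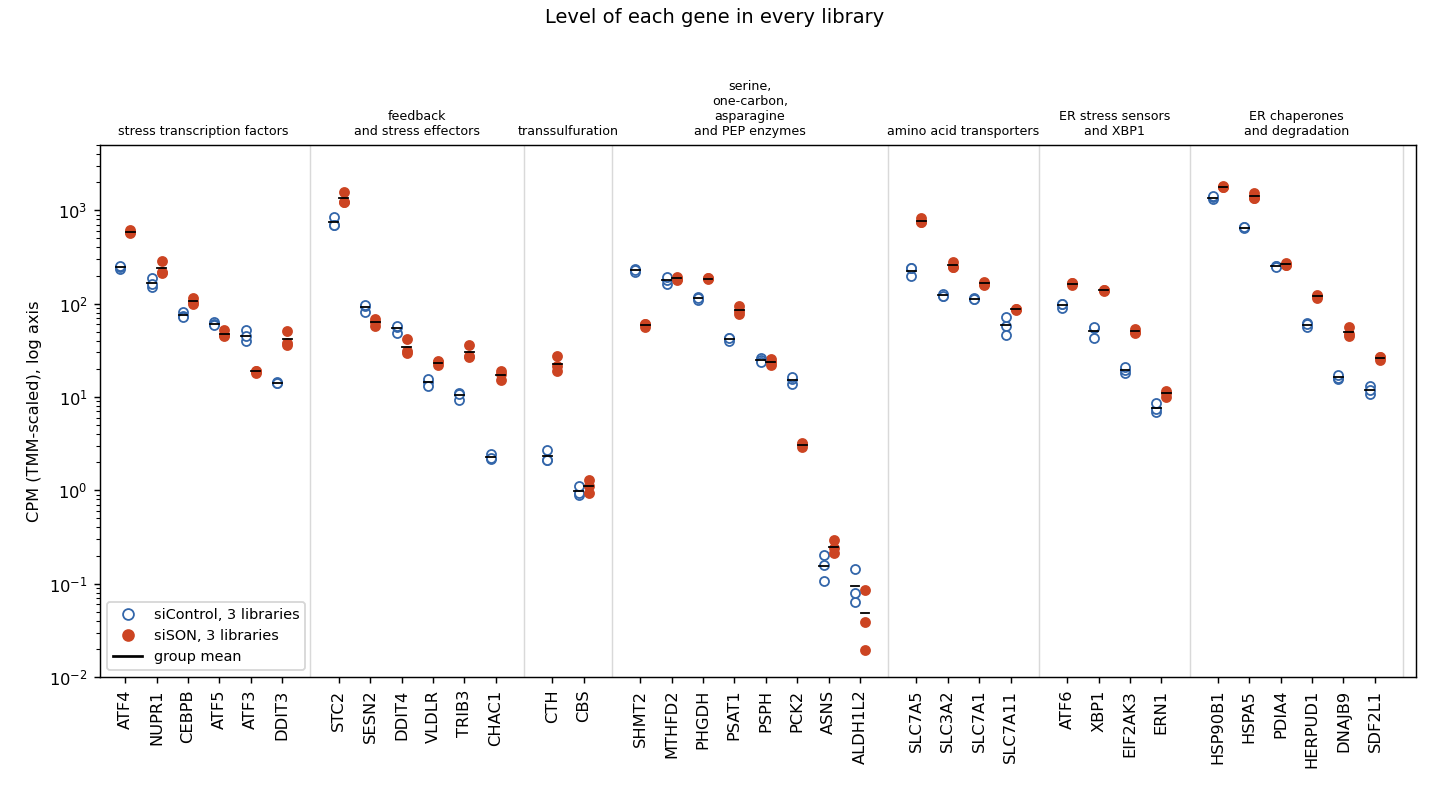
CPM of the 36 genes in each library on a log axis, by role, with open points for the 3 siControl libraries, filled points for the 3 siSON libraries and a bar for each group mean. The groups are apart for most genes, as for ATF4 with 233 to 256 against 572 to 612 CPM, while CBS, PSPH and MTHFD2 overlap and ASNS and ALDH1L2 lie near the lowest levels measured.

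Of the 6 stress transcription factors, 4 rose and 2 fell, with a median log2FC of 0.50 (0.23 under cyclic loess normalization). The lower genes are 33.3% of these, as for the feedback genes and effectors below, and 36.5% of all genes were called lower. ATF4 (chromosome 22, 39519695 to 39522685, plus strand) was at 233, 244 and 256 CPM in siControl and at 612, 572 and 584 CPM in siSON. It rose 2.41-fold, with a log2FC of 1.27 (SE 0.05, adjusted p 5.83e-09), and per kilobase of exon it stood at 97.3 CPM in siControl and 234 CPM in siSON, behind HSP90B1, HSPA5 and, in siControl, STC2. DDIT3, which encodes CHOP, a partner of C/EBP proteins linked to cell death under lasting stress, rose from 14.5, 14.1 and 14.1 CPM to 51.5, 37.9 and 35.9 CPM, a log2FC of 1.55 (SE 0.12, adjusted p 7.61e-07). All siSON libraries lay above all siControl libraries for both genes, with siSON replicate 1 the highest for DDIT3. DDIT3 shares 27.2% of its exon bases with MARS on the other strand, and MARS went from 9096 to 10728 counts down to 3477 to 5246 counts. The strand setting of the counting is not stated.

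ATF3, a stress-induced relative of ATF4, went the other way. It was at 52.0, 39.9 and 44.5 CPM in siControl and at 18.3, 19.1 and 19.2 CPM in siSON, with no overlap. Its log2FC was -1.27 (SE 0.09, adjusted p 3.62e-07), a level 2.41-fold lower. ATF5, a related factor tied to mitochondrial stress, fell from 61.2 ± 2.09 to 47.7 ± 3.51 CPM (SD, n = 3 each; log2FC -0.36, adjusted p 0.000555), and its log2FC was -0.56 with library size alone. It shares 21.2% of its exon bases with NUP62 on the other strand. CEBPB, which encodes a partner of ATF4 and CHOP, had a log2FC of 0.48 (adjusted p 0.000149), and 0.25 under cyclic loess normalization. NUPR1, a small chromatin-associated stress protein, had one of 0.52 (adjusted p 0.00287), and that call was lost under cyclic loess normalization (0.20, limma adjusted p 0.13).

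Of 6 feedback genes and effectors, 4 rose and 2 fell, with a median log2FC of 0.77, and CHAC1 had the second highest rise of the set. CHAC1 encodes an enzyme that breaks down glutathione and is widely used as a reporter of the ATF4 and CHOP branch. The gene (chromosome 15, 40952962 to 40956519, plus strand) was at 2.47, 2.15 and 2.21 CPM in siControl and at 18.8, 15.2 and 17.4 CPM in siSON. That is a 7.52-fold rise (log2FC 2.91, SE 0.12, adjusted p 5.16e-09), and 98 of the other genes tested had a higher log2FC. TRIB3, a pseudokinase that restrains ATF4 and AKT, rose from 11.1, 9.39 and 10.7 CPM to 35.9, 27.0 and 27.5 CPM, with a log2FC of 1.53 (SE 0.12, adjusted p 5.13e-07). The secreted glycoprotein gene STC2 and the lipoprotein receptor gene VLDLR rose less, with log2FCs of 0.84 (adjusted p 0.000122) and 0.70 (adjusted p 1.93e-05). STC2 was at 750.2 ± 90.5 CPM in siControl and 1344 ± 204 CPM in siSON (SD, n = 3 each), or 122 and 219 CPM per kilobase of exon, and its log2FC was 0.40 under cyclic loess normalization.

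The effector genes that were lower are DDIT4 and SESN2, whose products restrain mTORC1. DDIT4, which encodes REDD1, fell from 54.4 ± 5.21 to 34.0 ± 6.71 CPM (SD, n = 3 each; log2FC -0.68, SE 0.13, adjusted p 0.00072). SESN2, which encodes a leucine sensor, fell from 91.1 ± 8.35 to 63.0 ± 5.46 CPM (log2FC -0.53, SE 0.08, adjusted p 0.00013). Neither gene showed overlap between the groups. DDIT4 shares 41.2% of its exon bases with DDIT4-AS1 on the other strand, which had 0 to 14 counts per library.

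The letters of the CEBP-ATF response element, to which ATF4 dimers bind, were searched for in RefSeq promoters (GRCh38.p14, 250 bases before to 50 after each start) because the set holds ATF4 target genes that rose and others that fell. TGATGNAA, on either strand, is in 6 of the 46 entries of the 31 genes with a promoter entry, and in 3.62% of all 35116 entries. The set was picked to hold ATF4 target genes, so this is a description and no test of enrichment. In SLC3A2 and SLC7A1 the letters lie after the start. The matches before the RefSeq start are shown 5′ to 3′ on the strand of the gene, with the element in capitals, at chr15:40953251-40953280 (CHAC1), chr16:56931936-56932003 (HERPUD1), chr7:97872458-97872487 (ASNS, minus strand) and chr1:212565186-212565253 (ATF3).
CHAC1: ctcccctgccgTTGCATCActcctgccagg
HERPUD1: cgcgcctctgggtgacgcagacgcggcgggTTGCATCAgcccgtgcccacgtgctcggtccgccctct
ASNS: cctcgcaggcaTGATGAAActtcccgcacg
ATF3: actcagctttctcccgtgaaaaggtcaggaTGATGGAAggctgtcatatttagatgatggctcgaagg

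In the GENCODE annotation used for gene positions, which starts CHAC1 and ASNS further upstream, the stretches of these 2 genes lie inside the gene and overlap an annotated exon. These entries range from a rise (CHAC1 and HERPUD1) to a fall (ATF3). CHAC1 and HERPUD1 hold the same 8 letters in the same orientation, 202 and 169 bases before the start of their RefSeq entries. A match says only that the letters are present, and entries without it, such as those of CTH, DDIT3 and TRIB3, may hold other forms of the element or hold it elsewhere.

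Transsulfuration makes cysteine from homocysteine and serine, through cystathionine beta-synthase (CBS) and then cystathionine gamma-lyase (CTH). CTH (chromosome 1, 70411218 to 70439851, plus strand) had the highest log2FC of the set. It was at 2.12, 2.69 and 2.11 CPM in siControl and at 27.6, 19.1 and 21.5 CPM in siSON, a 9.87-fold rise (log2FC 3.30, SE 0.16, adjusted p 1.57e-08). Only 72 of the 16591 genes tested had a higher one. All siSON libraries were far above all siControl libraries, and without replicate 1 of both groups the log2FC was 3.06.

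CBS, the enzyme of the preceding step, did not pass the test. It was at 0.889, 0.944 and 1.11 CPM in siControl and at 1.29, 0.931 and 1.12 CPM in siSON, with overlapping groups (log2FC 0.19, SE 0.23, adjusted p 0.488). Its log2FC was near 0 with library size alone, and under cyclic loess normalization it was 0.60 (limma adjusted p 0.0315). CBS rests on 48 to 83 counts per library, and it has a near-identical copy in the reference, CBSL, with 0 to 3 counts. How reads that map to both were treated is not stated, so the level of CBS is uncertain.

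**Figure D2:**
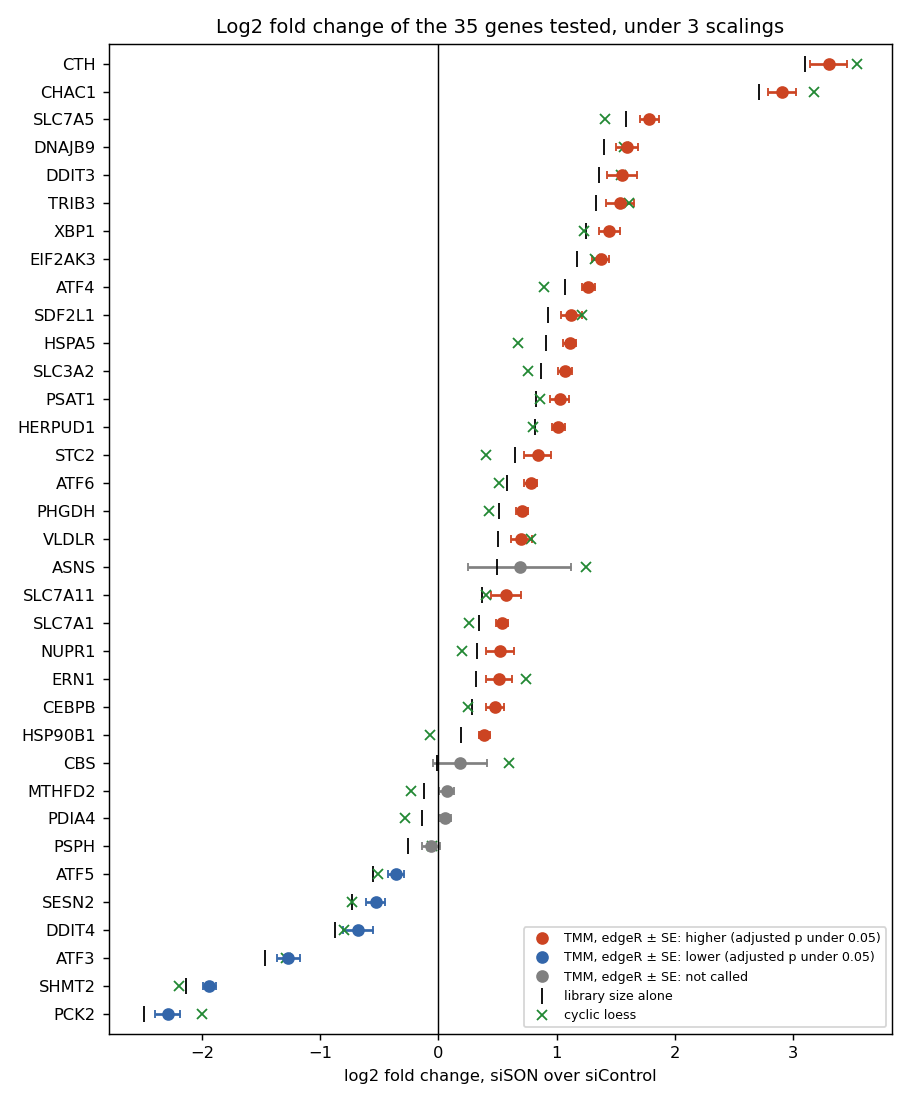
Log2FC of the 35 genes tested, with SE, from edgeR with TMM scaling (points), beside library size alone (bars) and cyclic loess normalization (crosses). CTH at 3.30 and CHAC1 at 2.91 stand apart at the top and PCK2 at -2.29 at the bottom, and HSP90B1, PDIA4, MTHFD2 and CBS cross 0 under another scaling.

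Of 7 genes tested for serine, one-carbon, asparagine and phosphoenolpyruvate enzymes, 2 rose and 2 fell, with a median log2FC of 0.07 that was -0.13 with library size alone and -0.05 under cyclic loess normalization. Each direction holds 28.6% of the 7, where 35.2% of all genes were called higher and 36.5% lower. The cytosolic pathway from glycolysis to serine runs through PHGDH, PSAT1 and PSPH. PSAT1 rose from 42.8, 39.5 and 43.0 CPM to 95.0, 77.2 and 83.0 CPM (log2FC 1.03, SE 0.08, adjusted p 5.02e-07). PHGDH rose from 114 ± 4.41 to 186 ± 1.04 CPM (SD, n = 3 each; log2FC 0.71, SE 0.05, adjusted p 2.55e-07), and its log2FC was 0.43 under cyclic loess normalization. PSPH, the phosphatase of the last step, was at 25.0 ± 1.20 and 23.9 ± 1.76 CPM, with overlapping groups and a log2FC of -0.06 (SE 0.08, adjusted p 0.492), which was -0.26 (adjusted p 0.0102) with library size alone.

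SHMT2, the mitochondrial enzyme that turns serine into glycine and a folate-bound one-carbon unit, fell strongly. The gene (chromosome 12, 57229327 to 57234935, plus strand) was at 234, 219.9 and 227 CPM in siControl and at 59.9, 60.8 and 56.6 CPM in siSON. Its log2FC was -1.94 (SE 0.05, adjusted p 8.39e-10), a level 3.84-fold lower, and it had the smallest adjusted p of the set. MTHFD2, which acts on the next folate intermediate in the mitochondrion, overlapped between groups at 177 ± 14.2 and 186 ± 6.49 CPM (log2FC 0.07, SE 0.06, adjusted p 0.333), and was lower under cyclic loess normalization (-0.23, limma adjusted p 0.00517), with -0.13 with library size alone (adjusted p 0.105). It shares 27.2% of its exon bases with SLC4A5 on the other strand, which had 0 to 31 counts. ALDH1L2, a mitochondrial folate dehydrogenase, had 1 to 10 counts per library and was not tested.

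PCK2, mitochondrial phosphoenolpyruvate carboxykinase, had the lowest log2FC of the set. It was at 13.7, 15.4 and 16.4 CPM in siControl and at 3.24, 3.12 and 2.93 CPM in siSON, a level 4.90-fold lower (log2FC -2.29, SE 0.11, adjusted p 1.49e-08). Both SHMT2 and PCK2 are known ATF4 targets, and for both the siSON libraries lay within a narrow range below every siControl library. ASNS, which makes asparagine, had 8 to 15 counts per library, and its log2FC was 0.69 (SE 0.43, adjusted p 0.178). In the annotation 44.6% of its exon bases are shared with AC079781.5 on the same strand, which had 7 to 53 counts. Whether reads that fall in both genes were counted is not stated, so these counts may not give the level of ASNS mRNA.

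All 4 amino acid transporter genes rose, with a median log2FC of 0.82. SLC7A5 encodes LAT1, an exchanger of large neutral amino acids, and SLC3A2 encodes its heavy chain, which it needs at the cell surface. SLC7A5 (chromosome 16, 87830023 to 87869488, minus strand) was at 196, 242 and 239 CPM in siControl and at 741, 759 and 832 CPM in siSON, a 3.44-fold rise (log2FC 1.78, SE 0.08, adjusted p 1.35e-08). SLC3A2 went from 119.6, 127 and 121 CPM to 276, 244 and 250.0 CPM (log2FC 1.07, SE 0.06, adjusted p 3.84e-08). Per kilobase of exon, SLC7A5 stood at 47.6 and SLC3A2 at 23.7 CPM in siControl, and at 164 and 49.6 CPM in siSON.

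The other two transporters had lower log2FC values. SLC7A1, the arginine and lysine transporter CAT1, rose from 113 ± 2.23 to 165 ± 5.54 CPM (SD, n = 3 each; log2FC 0.54, adjusted p 2.34e-06), and its log2FC was 0.26 under cyclic loess normalization. SLC7A11, the cystine and glutamate exchanger xCT, was at 57.7, 71.9 and 46.5 CPM in siControl and at 86.9, 88.5 and 86.0 CPM in siSON (log2FC 0.57, SE 0.13, adjusted p 0.00292). It varied more among siControl libraries than among siSON libraries. Without replicate 1 of both groups the SLC7A11 log2FC was 0.54 and no longer passed (adjusted p 0.223).

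The mRNAs of all 3 ER stress sensors rose. EIF2AK3, which encodes PERK, had the largest change of these, from 18.2, 19.7 and 20.9 CPM to 48.7, 50.2 and 53.4 CPM (log2FC 1.37, SE 0.07, adjusted p 3.2e-08). It shares 14.4% of its exon bases with AC104134.1 on the other strand, which had 1 to 6 counts. ATF6 went from 89.0, 98.5 and 99.7 CPM to 167, 158 and 167 CPM (log2FC 0.78, SE 0.06, adjusted p 4.12e-07), and ATF6 had 0.51 under cyclic loess normalization. ERN1, which encodes IRE1 alpha, had the lowest level per kilobase of exon of the 3 sensors (0.705 CPM in siControl). It was at 6.92, 7.50 and 8.57 CPM in siControl and 11.2, 10.1 and 11.5 CPM in siSON (log2FC 0.51, SE 0.11, adjusted p 0.00132). With library size alone its log2FC was 0.31. For none of the sensors did the groups overlap.

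XBP1, the mRNA that IRE1 cuts, rose without overlap from 43.2, 54.7 and 56.1 CPM to 141, 137 and 141 CPM (log2FC 1.44, SE 0.09, adjusted p 8.81e-08). The spliced and unspliced forms are counted together.

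Of 6 ER chaperone and degradation genes, 5 were called higher and 1 did not pass, with a median log2FC of 1.06, while under cyclic loess normalization 4 were higher and 1 lower. HSPA5 encodes BiP, the main chaperone of the ER lumen, and is a standard target of ATF6. It was at 657, 647 and 657 CPM in siControl and at 1519.9, 1360.2 and 1353 CPM in siSON, a 2.16-fold rise (log2FC 1.11, SE 0.05, adjusted p 1.61e-08), and its log2FC was 0.67 under cyclic loess normalization. DNAJB9, a BiP co-chaperone that represses IRE1, rose from 15.7, 16.1 and 17.2 CPM to 56.3, 45.0 and 46.7 CPM (log2FC 1.60, SE 0.09, adjusted p 5.32e-08). SDF2L1, which works with ER J-domain proteins, went from 10.9, 13.1 and 11.9 CPM to 26.6, 25.1 and 26.6 CPM (log2FC 1.13, SE 0.09, adjusted p 4.83e-07).

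HERPUD1, a membrane protein of ER-associated degradation, rose from 61.5, 56.9 and 60.1 CPM to 124, 116 and 121 CPM (log2FC 1.02, SE 0.06, adjusted p 4.11e-08). For these 4 genes all siSON libraries lay above all siControl libraries. HSP90B1, which encodes GRP94 and was the most abundant of the set per kilobase of exon (292 CPM in siControl), went from 1369 ± 55.7 to 1792 ± 21.6 CPM (SD, n = 3 each; log2FC 0.39, SE 0.05, adjusted p 1.74e-05), but under cyclic loess normalization its log2FC was -0.07 (limma adjusted p 0.176). PDIA4, a disulfide isomerase, was at 253 ± 4.66 and 263 ± 5.66 CPM (log2FC 0.06, SE 0.05, adjusted p 0.29), and it was called lower with library size alone (-0.14) and under cyclic loess normalization (-0.28).

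The letters of the ER stress element, to which ATF6 binds with the factor NF-Y, are CCAAT, then 9 bases, then CCACG. They are rare, with 27 of 35116 promoter entries (0.0769%) holding them on either strand. The entries of HSPA5, HSP90B1 and XBP1 are among the 27. The matches in these known ER stress genes, which were picked as such, are a description and no test of enrichment. They are shown 5′ to 3′ on the strand of the gene with the element in capitals, at chr9:125241361-125241439 (HSPA5, minus strand), chr22:28800598-28800626 (XBP1, minus strand), and chr12:103930211-103930239 and chr12:103930316-103930344 (HSP90B1, where the second copy is on the opposite strand).
HSPA5: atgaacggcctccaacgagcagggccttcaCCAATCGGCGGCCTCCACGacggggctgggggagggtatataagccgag
XBP1: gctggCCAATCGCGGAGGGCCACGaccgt
HSP90B1, first copy: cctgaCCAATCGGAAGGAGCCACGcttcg
HSP90B1, second copy: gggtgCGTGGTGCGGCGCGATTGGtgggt

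Both HSP90B1 stretches lie before the RefSeq start but inside the gene, in an annotated exon, in the GENCODE annotation. The gene with 2 copies, HSP90B1, had the smallest log2FC of these 3 genes and XBP1 the largest. The unfolded protein response element, TGACGTGG, was in none of the 46 entries of the set and in 0.729% of all entries.

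**Figure D3:**
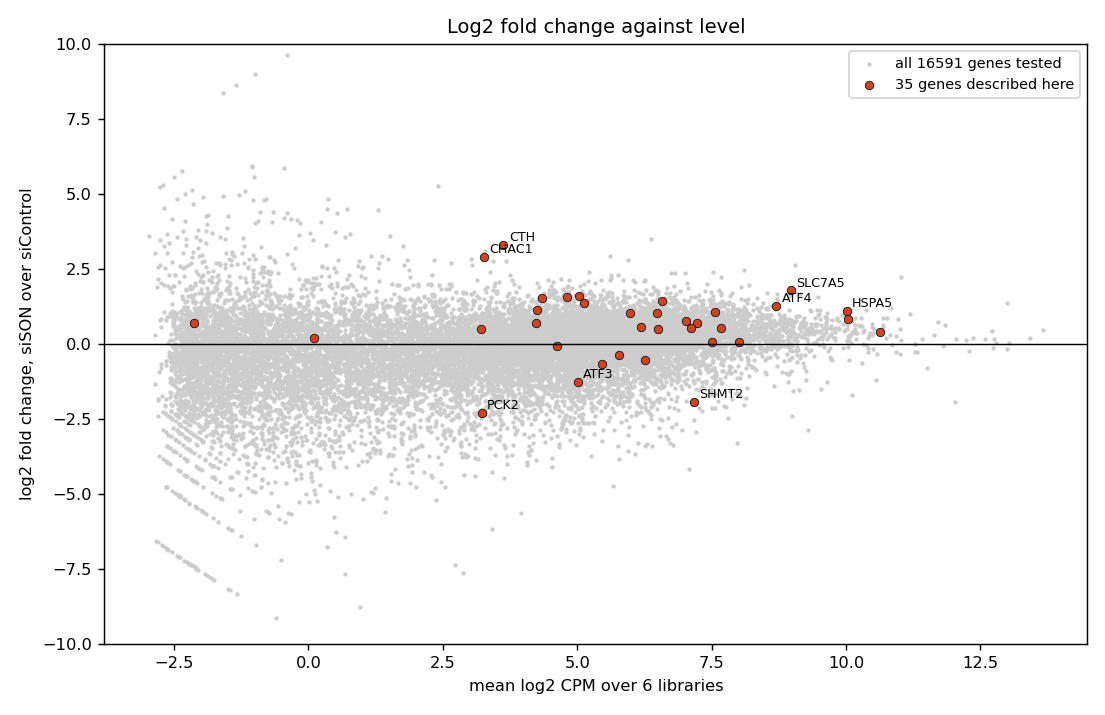
Log2FC against mean log2 CPM for all 16591 genes tested (grey) and the 35 genes of the set that were tested (red). Most of the red points lie above 0 at middle and high levels, with SHMT2, PCK2 and ATF3 below.

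Transcript features of the set were compared with the fold changes, because SON is known for splicing of introns with weak splice sites. Splice site strength itself was not measured here, so the values below do not bear on it. The 6 genes called lower had a median GC content of 58.8% (50.8% to 61.6%) in their longest coding transcript and a median intron length of 494 bases (160 to 2865). The 14 genes at least 2-fold higher had medians of 49.9% (40.4% to 65.5%) and 1106 bases (101 to 4618), so the ranges overlap widely. Median intron length was 160 bases in SHMT2 and 321 bases in PCK2, which fell and have 12 and 10 exons in this transcript. It was 101 bases in ATF4, 110 bases in DDIT3 and 281 bases in HSPA5, which rose. These have 2, 4 and 8 exons. The part of intron length in the changes was not tested. Across the 35 genes the Pearson correlation of GC content with log2FC was -0.17, and across 16585 genes it was -0.22. For log intron length it was 0.20 over 34 genes and 0.22 over 14668 genes. Genes are not independent replicates, and these values are descriptions.

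The other genes of these pathways were described with 8 lists. Of all genes tested, 35.2% were called higher and 36.5% lower, and some shares within the lists lie near these while others do not. The eIF2 list had 55.6% higher and 38.9% lower, the folate list 30% and 50%, and the glutathione list 50% and 41.7%. The list of sensor paralogs and partners had 45.5% and 18.2%, and the methionine and sulfide list 18.2% and 22.7%. The list of other ATF4 and CHOP targets had 54.5% and 27.3%, ER folding 63.6% and 22.7%, and ER-associated degradation 70.8% and 20.8%. Of 18 genes for eIF2 kinases, eIF2, eIF2B and their phosphatase subunits, 10 were higher and 7 lower, with a median log2FC of 0.35, which was 0.08 under cyclic loess normalization (8 and 7) and 0.16 with library size alone (9 and 8). EIF2AK4, the eIF2 kinase GCN2 that senses uncharged tRNA, rose from 111 ± 3.03 to 288 ± 10.4 CPM (SD, n = 3 each; log2FC 1.38, adjusted p 3.34e-09), while GCN1, the protein that activates it, fell from 228 ± 4.59 to 79.1 ± 5.38 CPM (-1.53, adjusted p 4.18e-09). PPP1R15B, a subunit that directs eIF2 dephosphorylation, rose (1.13, adjusted p 5.42e-08). EIF2B2, a subunit of the exchange factor that recycles eIF2, fell from 36.5 ± 1.23 to 7.93 ± 0.701 CPM (-2.20, adjusted p 4.1e-09), and 20.2% of its exon bases are shared with AL049780.3 on the other strand.

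Of 22 other ATF4 and CHOP target genes tested, 12 were higher and 6 lower, with a median log2FC of 0.66. BCAT1, the cytosolic branched-chain aminotransferase, and GPT2, the mitochondrial alanine aminotransferase, rose with log2FCs of 1.68 (adjusted p 2.76e-07) and 1.56 (adjusted p 1.3e-08). GDF15, a secreted stress hormone, fell from 254 ± 25.0 to 14.3 ± 4.43 CPM (SD, n = 3 each; log2FC -4.16, SE 0.21, adjusted p 1.57e-07). GDF15 is a known target of p53 as well as of CHOP. LONP1, a mitochondrial protease, had -1.28 (adjusted p 3.71e-06).

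Of 20 folate and glycine enzymes, 6 were higher and 10 lower, with a median log2FC of -0.49, which was -0.25 under cyclic loess normalization (5 and 9) and -0.68 with library size alone (4 and 13). FPGS, which adds glutamates to folate, had a log2FC of -2.12 (adjusted p 8.39e-10). SFXN1, the mitochondrial serine carrier that supplies SHMT2, rose (0.86, adjusted p 1.22e-06). SLC25A32, the mitochondrial folate carrier, had 1.21 (adjusted p 2.07e-06), but 69.7% of its exon bases are shared with AC012213.5 on the same strand.

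Of 22 genes tested for the methionine cycle and sulfide oxidation, which flank CTH, 4 were higher and 5 lower, and 13 did not pass, with a median log2FC of -0.05. With library size alone 3 were higher and 12 lower, and under cyclic loess normalization 5 and 10. MTRR and MPST had log2FCs of 0.52 (adjusted p 3.61e-05) and 0.48 (adjusted p 0.000112), and with library size alone 0.33 and 0.28. CSAD, of taurine synthesis, and SUOX, sulfite oxidase, had -1.08 (adjusted p 6.47e-06) and -0.76 (adjusted p 2.5e-06).

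Of 12 glutathione and cystine genes, 6 were higher and 5 lower, with a median log2FC of 0.19. With library size alone 5 were higher and 5 lower (median -0.0055), and under cyclic loess normalization 5 and 6 (median -0.013). GSS, glutathione synthetase, fell from 67.0 ± 1.72 to 18.3 ± 0.251 CPM (SD, n = 3 each; log2FC -1.87, adjusted p 1.73e-09), and GGT1, which breaks down glutathione outside the cell and has close paralogs, fell from 9.08 ± 0.930 to 1.02 ± 0.119 CPM (-3.14, adjusted p 1.39e-08). GSR, glutathione reductase, rose by 0.58 on the log2 scale (adjusted p 5.33e-06), and by 0.37 under cyclic loess normalization. SRXN1 had 1.44 (adjusted p 4.82e-07), with 85.0% of its exon bases shared with AL121758.1 on the same strand.

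**Figure D4:**
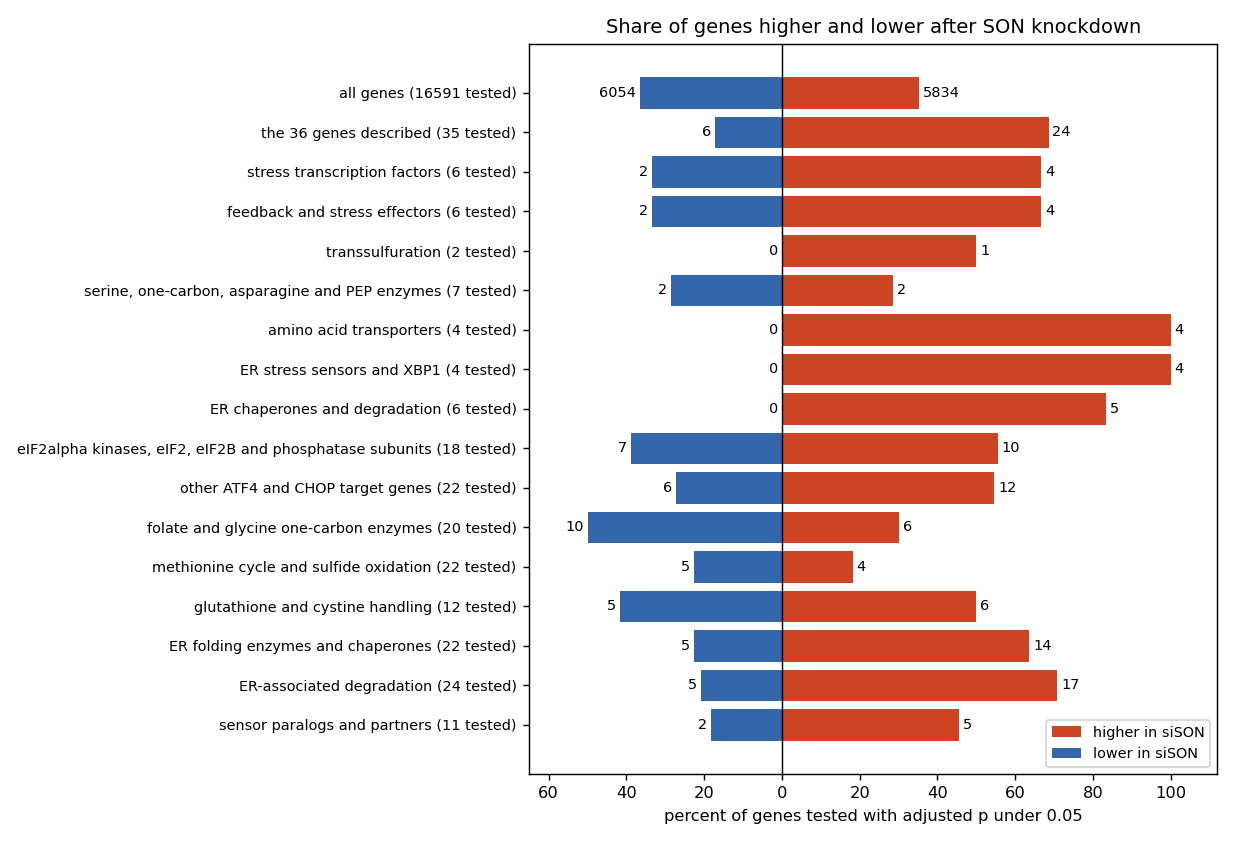
Percent of genes tested that were called higher (right) and lower (left) in siSON, for all genes, for the 36 genes described, for their roles and for the 8 further lists, with the number of genes beside each bar. Amino acid transporters (4 of 4) and ER sensors with XBP1 (4 of 4) are all on the higher side, while folate and glycine enzymes have 10 of 20 on the lower side.

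Beyond the set, ER folding genes were mostly higher, with 14 higher and 5 lower of 22 and a median log2FC of 0.36, although this split was 11 and 8 under cyclic loess normalization (median 0.12) and 11 and 7 with library size alone (median 0.16). CANX, the lectin chaperone calnexin, rose from 667 ± 38.3 to 1286 ± 79.3 CPM (SD, n = 3 each; log2FC 0.95, adjusted p 1e-07, and 0.51 under cyclic loess normalization). TXNDC11 had 0.92 (adjusted p 7.49e-08). HYOU1, a large chaperone and exchange factor for BiP, went against HSPA5 and fell from 250.1 ± 7.15 to 56.9 ± 5.05 CPM (-2.14, SE 0.07, adjusted p 1.6e-09). FKBP14, a prolyl isomerase of the ER, also fell (-1.06, adjusted p 1.55e-06).

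Of 24 genes of ER-associated degradation, 17 were higher and 5 lower, with a median log2FC of 0.38, and 13 were higher and 7 lower under cyclic loess normalization (median 0.21). HERPUD2, the paralog of HERPUD1, rose from 12.9 ± 1.23 to 47.1 ± 0.807 CPM (SD, n = 3 each; log2FC 1.87, adjusted p 8.07e-09), and SELENOS, a selenoprotein of the retrotranslocation complex, had 1.23 (adjusted p 1.67e-08). The ubiquitin ligase gene RNF5 fell (-1.44, adjusted p 1.55e-08), as did UBE2J2 (-0.23, adjusted p 0.00316, and -0.43 with library size alone).

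Paralogs and partners of the sensors were mixed, with 5 higher and 2 lower of 11, a median log2FC of 0.10, and 4 higher and 4 lower under cyclic loess normalization, while with library size alone the median was -0.09. ATF6B, the paralog of ATF6, fell from 53.1 ± 2.91 to 24.7 ± 1.62 CPM (SD, n = 3 each; log2FC -1.10, adjusted p 1.52e-07) where ATF6 rose. RTCB, the ligase that joins the XBP1 exons after IRE1 has cut, rose (0.92, adjusted p 1.17e-07). WFS1, an ER membrane protein, rose (1.22, adjusted p 1.81e-07), and CREB3L4, a factor released like ATF6, fell from 4.14 ± 0.0546 to 0.130 ± 0.0441 CPM (-4.96, adjusted p 1.54e-08).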

How the data were processed

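For 6 libraries the authors deposited a table of raw counts by gene, as whole numbers. Per the submitters' processing notes the tools were cutadapt 1.16, STAR 2.5.2a, featureCounts 1.6.2 and DESeq2 1.28.1 with build hg38, and strand and multi-mapping settings are not given in the sources used here. Identifiers of all 58735 genes matched GENCODE release 29 of GRCh38, used for positions, exon lengths and overlaps.

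Counts were fitted across all genes in R 4.3.3 with edgeR 4.0.16 (filterByExpr, minimum count 10, TMM factors, robust quasi-likelihood test, group alone as predictor) with Benjamini-Hochberg adjustment over 16591 genes and a threshold of 0.05. SE is the absolute log2 fold change over the square root of F. CPM were computed from the counts with TMM-scaled library sizes. Alternatives used DESeq2 1.42.0, limma 3.58.1 (voom, cyclic loess), other scalings and filters, and fewer libraries. On simulated counts for these 16591 genes, with 200 genes changed 2-fold, 91.5% of the changes were recovered and 5.18% of the calls were false. The simulation gave all genes a common dispersion and changed far fewer genes than were called here. It therefore checks the procedure and does not give the recovery or the error rate in these data. The limit that a count of 0 allows, 3 counts, was 0.0430 to 0.0550 CPM per library without TMM factors and covers counting error alone. Replicates differed by more than sampling noise in every pair (chi-square per degree of freedom 7.16 to 26.1, highest in pairs with replicate 1).

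Genes of the set with a call and at least a 2-fold estimate, and ATF4, DDIT3, CTH, CBS, XBP1, HSPA5, ATF6, EIF2AK3 and ERN1, are given for every library. From each of 8 further lists, the 2 highest and 2 lowest log2 fold changes among called genes with mean log2 CPM at or above 1 are named, except 1 that is not reported here. The members and lists were chosen with earlier results of these data known. Promoter sequences are from RefSeq, where 31 of the 36 genes matched, and NUPR1, PSPH, SHMT2, ALDH1L2 and SLC7A11 were not matched.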

Additional observations from a re-analysis of the deposited data

How the results depend on the processing

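Of 559 recomputed log2 fold changes of single genes under 16 alternatives, 544 kept both their sign and their side of the threshold. The sign turned for 10 values, all of CBS, MTHFD2, PDIA4 and HSP90B1. It turned with a call gained or lost for PDIA4 with library size alone (-0.14), and for PDIA4 (-0.28), MTHFD2 (-0.23) and HSP90B1 (-0.073) under cyclic loess normalization. In the other 6 neither value was called: MTHFD2 with library size alone (-0.13), without siControl replicate 1 (-0.014) and without replicate 1 of both groups (-0.0044), CBS with library size alone (-0.013) and without replicate 1 of both groups (-0.029), and PDIA4 with genes of mean count at least 50 (-0.00017). ASNS was called under cyclic loess normalization (1.24, limma adjusted p 0.0115). The cause was not tested. The number of genes of the set called changed (30) was 29 to 32 over all alternatives and 30 in each fit that left out one library. With library size alone the median log2 fold change of all genes was -0.22 in place of -0.03, and the calls over all genes were 4441 higher and 7351 lower in place of 5834 and 6054. The replicate numbers are shared by both groups, but nothing says that they pair the libraries. Deviations of same-numbered libraries correlated at 0.194, 0.0461 and 0.118 for numbers 1, 2 and 3. Those of differently numbered libraries correlated at -0.138 to 0.0286, each below every same-numbered value. The main fit leaves the replicate number out. With the replicate number as a block 12313 genes were called in place of 11888, and 30 genes of the set, 24 higher and 6 lower. ASNS, CBS and ALDH1L2 had at most 83 counts in a library, which limits the precision of their values. Whether reads were lost to overlapping genes or copies was not tested.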
